A study of Rattus norvegicus with 9 samples.

Results

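Vip, the gene of vasoactive intestinal peptide, was measured in the hypothalamus of 9 male rats aged 13 weeks, with 1 array per rat. It is 1 of 14217 genes that a single-symbol probe set names on the array, and 1 probe set (1377146_at) carries its symbol. The gene was chosen by the spread of its deposited log2 values over the 9 rats, which is more than 2 log2 units, so that spread and the genes that share its pattern are given below as descriptions, with no test. The 4 rats of the noodle diet ate feed with instant noodles and their seasonings, and the 5 rats of the control diet ate that feed with the seasonings left out. In both diets noodles were 30% of the feed's weight, and 26% of the energy came from fat. Feeding was paired at about 60 g of feed per kg and day, in a 12 hour cycle of light and dark, and the feeding period is given as 30 days in one label and as 4 weeks in another. Neither the strain, nor the hour of dissection, nor the borders of the dissected tissue is given in the sources used here. Rats are named by diet and by the number in their label.

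Vasoactive intestinal peptide is a neuropeptide of the secretin family, made from a precursor that also yields a histidine isoleucine peptide. In the hypothalamus it is best known from the suprachiasmatic nucleus, a small paired nucleus above the optic chiasm, where neurons of the ventral core release it to keep the clock cells of the nucleus in step and to pass on light input. It acts mainly through the receptor VPAC2, encoded by Vipr2, which raises cyclic AMP, and its own gene answers to cyclic AMP through a response element upstream of the start site. Vip is also made by interneurons of the cerebral cortex and by nerve fibres around blood vessels.

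The stretch before the start site is shown because it holds letters of a cyclic AMP response element. In RefSeq's rat assembly GRCr8 the gene (gene number 117064) spans positions 44470232 to 44478561 of chromosome 1 on the plus strand, in 4 transcript models. The promoter table takes position 44470480 as the start, which lies inside that span, so the bases shown are upstream of this start and not of the whole annotated gene. The 150 bases before it, chr1:44470330-44470479, read as follows, with the 7 letters TGACGTC and the 6 letters TATAAA in capitals.
Vip before the start used: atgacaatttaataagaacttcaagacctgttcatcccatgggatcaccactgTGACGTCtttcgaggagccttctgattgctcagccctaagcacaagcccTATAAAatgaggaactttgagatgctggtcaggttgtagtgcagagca
The letters TGACGTC stood at positions -97 to -91 from the start, and the TATAAA nearest to the start at -48 to -43. Both strands of the 250 bases before each start were searched. The first of these motifs was in 2.8% and the second in 12.9% of 33469 such windows. The palindrome TGACGTCA, which holds TGACGTC within it, was in 1.59% of windows and the E-box CACGTG in 5.59%, and neither was in the Vip window. These are matches of letters only, and no file here measures binding.

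Vip was high in 5 rats, low in 3 and between in 1, and each diet had rats at both ends. On the noodle diet the deposited log2 values were 8.19 in rat 1, 6.56 in rat 4, 6.33 in rat 7 and 7.51 in rat 13. On the control diet they were 8.30 in rat 2, 8.15 in rat 5, 8.11 in rat 8, 8.01 in rat 11 and 6.15 in rat 14. Thus 5 rats lay within 0.28 log2 units of each other at the top, 3 rats lay within 0.42 of each other at the bottom, and noodle-diet rat 13 lay between them. The gap from the 3 low rats to rat 13 was 0.94 and the gap from rat 13 to the 5 high rats was 0.51, each wider than the spread within either end. Inside each end the neighbouring rats differed by less than those gaps, and with 1 array per rat the error in their order could not be estimated. The whole range was 2.15 log2 units, or 4.44-fold, around a median of 8.01, and it ranked at 8 among 31042 probe sets. Most of these could hardly compete for that rank, since 29759 ranged over less than 0.01 log2 units. Of the 31042, 11 ranged over more than 2 log2 units, of which the narrowest spanned 2.02, and the widest probe set outside that limit spanned 1.996. The 3 low values lay below the array medians, which spanned 6.777 to 6.785. The lowest, 6.15, lay just above the 20th percentile of all values, 6.07, so the low end may be near background. In whole tissue, fewer cells that make Vip and less Vip RNA per cell cannot be told apart.

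**Figure D1:**
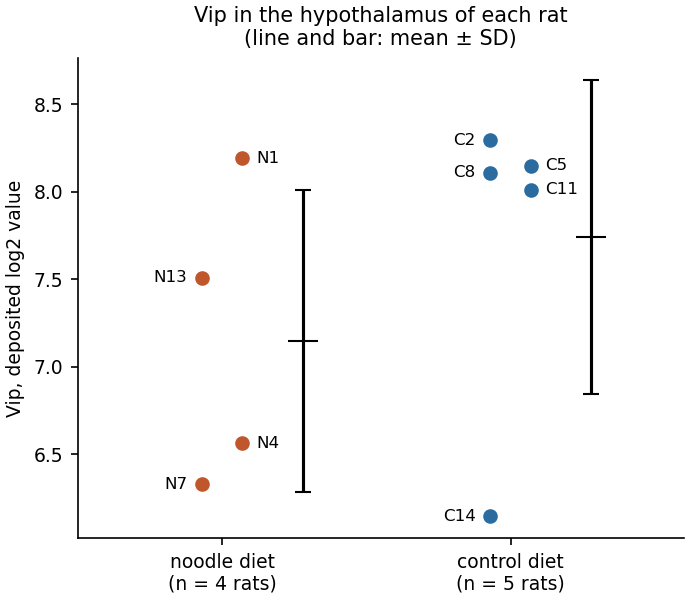
Deposited log2 value of Vip (vertical axis) in each rat of the noodle diet (N, 4 rats) and the control diet (C, 5 rats), with the mean and SD of each diet beside the points. The 3 low rats are N4 (6.56), N7 (6.33) and C14 (6.15), N13 lies between at 7.51, and the other 5 lie from 8.01 to 8.30.

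The one comparison of the design, seasonings against none, gave no difference in Vip larger than the spread between rats. Vip measured 7.15 ± 0.86 (SD, n = 4) on the noodle diet and 7.74 ± 0.90 (SD, n = 5) on the control diet. The groups overlapped, since control rat 14 lay below every noodle-diet rat and noodle-diet rat 1 lay above 4 of the 5 controls. The difference, noodle minus control, was -0.59 log2 units (SE 0.56; 95% interval -1.90 to 0.71). By limma its unadjusted p was 0.322 and its adjusted p over 31042 probe sets rounded to 1. By limma 0% of those probe sets passed an adjusted p of 0.05 and 712 had an unadjusted p under 0.05. An exact 2-sided permutation test over the 126 ways to split the rats gave p = 0.278, where the smallest it could give is 0.00794. Without control rat 14 the difference was -0.99 (95% interval -1.97 to -0.017; unadjusted limma p = 0.0471, with an adjusted p that rounded to 1), and the exact permutation p was 0.114 over 70 splits. Without noodle-diet rat 1 it was -0.94, and without noodle-diet rats 4 or 7 it was -0.40 and -0.32. Each of these values kept the sign, and none passed after adjustment.

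The other ligands and receptors of the family could not be followed from rat to rat. Most probe sets of this array hardly differ between rats in the deposited values: 29759 range over less than 0.01 log2 units and are called compressed here, and 1223 range over more than 0.05 and are called variable. A compressed probe set cannot show whether its gene moved with Vip. All 5 other ligands of the secretin family were compressed, among them Adcyap1, which encodes the closest relative PACAP, and Ghrh, the growth hormone releasing hormone. All 9 receptors of the family were compressed too, including Vipr1 and Vipr2, the receptors of the peptide itself, and the PACAP receptor gene Adcyap1r1. Among 21 measured genes of the cyclic AMP pathway below these receptors 1 was variable, the protein kinase A subunit gene Prkacb, with an r of -0.32 with Vip. Here and below r is Pearson's correlation of log2 values over the 9 rats, and rho is Spearman's.

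The suprachiasmatic genes that did vary had a negative r with Vip over the 9 rats, but not for every gene within the rats of high Vip. Of 14 measured peptide, receptor and calcium-binding protein genes of the nucleus 2 were variable, Avp and Calb2, and those left out of reach included Grp, Prok2, Penk and Cck. Avp, which encodes vasopressin and is made in the dorsal shell of the nucleus but also in the large neurons of the paraventricular and supraoptic nuclei, had an r of -0.48 and a rho of -0.55. Its lowest values, 10.49 in noodle-diet rat 1 and 10.91 in control rat 2, were those of the rats highest in Vip, yet noodle-diet rat 13 had the highest Avp at 11.84. Calb2, the calretinin gene, had an r of -0.58. Of 13 measured genes that mark the nucleus 4 were variable, and all had a negative r. These were Slc32a1 (-0.89), Gad2 (-0.76), Dlx1 (-0.64) and Gad1, at -0.24 and -0.60 in its 2 variable probe sets, all genes of GABA neurons in general and not of this nucleus alone. Within the 6 rats of highest Vip, r was 0.24 for Slc32a1, 0.46 for Dlx1 and 0.10 for Gad2, while Avp (-0.63) and Calb2 (-0.53) stayed negative. There the Gad1 probe set at -0.24 stood at -0.60 and the one at -0.60 stood at -0.04. Without the 2 rats farthest from the median of Vip, r was 0.13 for Dlx1 and 0.41 for the Gad1 probe set at -0.24, which also stood at 0.18 without control rat 14. Without those 2 rats r stayed negative for Slc32a1 (-0.67), Gad2 (-0.21), the other Gad1 probe set (-0.13), Avp (-0.53) and Calb2 (-0.59). The transcription factor genes Six6, Six3, Lhx1, Rorb and Zfhx3, which define the nucleus more closely, were all compressed. The levels of the defining markers could therefore not be followed from rat to rat, and whether the Vip RNA came from the suprachiasmatic nucleus was not tested.

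No variable clock or activity gene reached an r of 0.8 with Vip. Of 19 measured clock genes 3 were variable: the output factor Dbp (r = 0.42), its relative Hlf (0.59 and 0.68 in 2 probe sets) and the repressor Bhlhe40 (-0.24). Dbp measured 8.71 both in noodle-diet rat 1, which was high in Vip, and in noodle-diet rat 4, which was low. Of 17 measured immediate early genes, which neurons switch on within minutes of stimulation, 2 were variable, with an r of 0.53 for Egr1 and 0.23 for Fos. Egr1 and Vip shared control rat 14 as their lowest rat, while noodle-diet rat 4 was at 8.54 for Egr1, exceeded by control rat 11 alone, and among the 3 lowest for Vip.

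Other peptides of the hypothalamus went both ways. Of 18 measured genes 14 were variable, 5 with a positive and 9 with a negative r. Npy, the appetite-raising neuropeptide Y of the arcuate nucleus, came closest to Vip (r = 0.81, rho = 0.78). It measured 8.94, 8.72, 8.69 and 8.86 in noodle-diet rats 1, 4, 7 and 13 and 8.90, 8.79, 8.86, 8.85 and 8.77 in control rats 2, 5, 8, 11 and 14. The 3 rats low in Vip were thus the 3 lowest in Npy, over a range of 0.26 log2 units against 2.15 for Vip. The appetite-curbing Cartpt had an r of 0.64. Tac3, which encodes neurokinin B, had an r of -0.76 and a rho of -0.98, so its order of rats was nearly that of Vip turned round. It was lowest at 6.95 in control rat 2, the highest in Vip, and highest at 7.52 in control rat 14, the lowest in Vip. The r was -0.70 for neurotensin (Nts), -0.67 for oxytocin (Oxt) and -0.62 for Gnrh1. It was -0.38 for Pmch, -0.36 for Hcrt and 0.15 for Sst.

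Over all variable probe sets, 41 of the 1222 others (3.36%) followed Vip with an r of at least 0.8, and 16 (1.31%) opposed it with an r of -0.8 or below. The 41 comprise 31 probe sets with 1 symbol, 4 with several and 6 unnamed here, and the 16 comprise 12 with 1 symbol, for 11 genes, and 4 unnamed. The same count of followers had a median of 29 over the variable probe sets and was larger than that of Vip for 515 of them. The count of opposers had a median of 8 and was larger than that of Vip for 258. The nearest neighbour of Vip reached an r of 0.88, whereas the median variable probe set had a neighbour of another gene at 0.95, and 1025 of 1222 (83.9%) had a closer one than Vip. All 9 points of each r share the same arrays and, per rat, the same dissection. The array medians, which spanned 6.777 to 6.785, themselves had an r of 0.78 with Vip. With all arrays set to a common median, 40 probe sets followed Vip and 17 opposed it. After quantile normalization 41 followed it and 19 opposed it. The part of the array medians in these likenesses was not tested beyond those counts.

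In order of r, the 12 named genes nearest to Vip were Ch25h, Vamp8, Slc12a7, Hbb, Sned1, Ybx3, Vim, Ppfibp1, Net1, Abi3bp, Cdkn1c and Dap, with r from 0.88 to 0.84. Ch25h, which encodes an enzyme that hydroxylates cholesterol, measured 6.83, 6.07, 6.09 and 6.53 in noodle-diet rats 1, 4, 7 and 13 and 6.79, 6.70, 6.59, 6.31 and 6.17 in control rats 2, 5, 8, 11 and 14. The 3 rats low in Vip were its 3 lowest, followed by control rat 11. Slc12a7, a potassium chloride cotransporter gene, had the highest rho of these (0.98) and measured 7.43, 7.04, 7.003 and 7.21 in the noodle-diet rats and 7.47, 7.35, 7.35, 7.05 and 6.89 in the controls, in the same order of rats. Its order of rats was that of Vip except for control rat 11, which came just above noodle-diet rat 4. Hbb, a beta globin gene of red blood cells, measured 11.04, 10.57, 10.65 and 11.21 on the noodle diet and 11.54, 11.50, 11.43, 10.95 and 10.65 on the control diet. Globin is made by red cells, so the 3 rats low in Vip also had the lowest level of a blood transcript, and its part in the result was not tested. Vim, the vimentin gene of glia, tanycytes and connective tissue cells, ran from 9.36 in control rat 14 to 10.40 in noodle-diet rat 1. Abi3bp, a matrix protein gene, ran from 5.96 in control rat 14 to 7.10 in noodle-diet rat 1, and Cdkn1c, a cell cycle inhibitor gene, from 7.29 in noodle-diet rat 7 to 8.22 in control rat 8.

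In order of r, the 12 named genes of lowest r were Slc32a1, Cbln2, Nefl, Cygb, Vamp1, Vsnl1, Htr2c, Asic2, Plcxd2, Aak1, Kcnc1 and Cplx1, with r from -0.89 to -0.78, of which Cplx1 at -0.78 falls short of the limit of -0.8. Slc32a1, the vesicular transporter of GABA and glycine, measured 8.62, 8.85, 9.01 and 8.64 in noodle-diet rats 1, 4, 7 and 13 and 8.67, 8.74, 8.75, 8.69 and 9.09 in control rats 2, 5, 8, 11 and 14. The 3 rats low in Vip were the 3 highest in Slc32a1, and the other 6 rats lay within a narrow band below them. Nefl, the light neurofilament chain, measured 9.75, 9.90, 9.88 and 9.82 on the noodle diet and 9.70, 9.76, 9.82, 9.83 and 9.89 on the control diet. Its range was 0.19 log2 units, against 2.15 for Vip, so the opposing change was small in size. Htr2c, a serotonin receptor gene, ran from 9.54 in noodle-diet rat 1 to 9.80 in control rat 14, and Kcnc1, a fast potassium channel gene, from 9.14 in control rat 8 to 9.71 in noodle-diet rat 4. Vamp1 and Cplx1 act in synaptic vesicle release, Vsnl1 is a neuronal calcium sensor and Asic2 an acid-sensing channel. Vamp1 opposed Vip in both of its variable probe sets (r = -0.83 and -0.82), over ranges of 0.085 and 0.22 log2 units. Another variable probe set of Nefl (r = -0.57) and another of Vsnl1 (-0.63) fell short of -0.8.

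**Figure D2:**
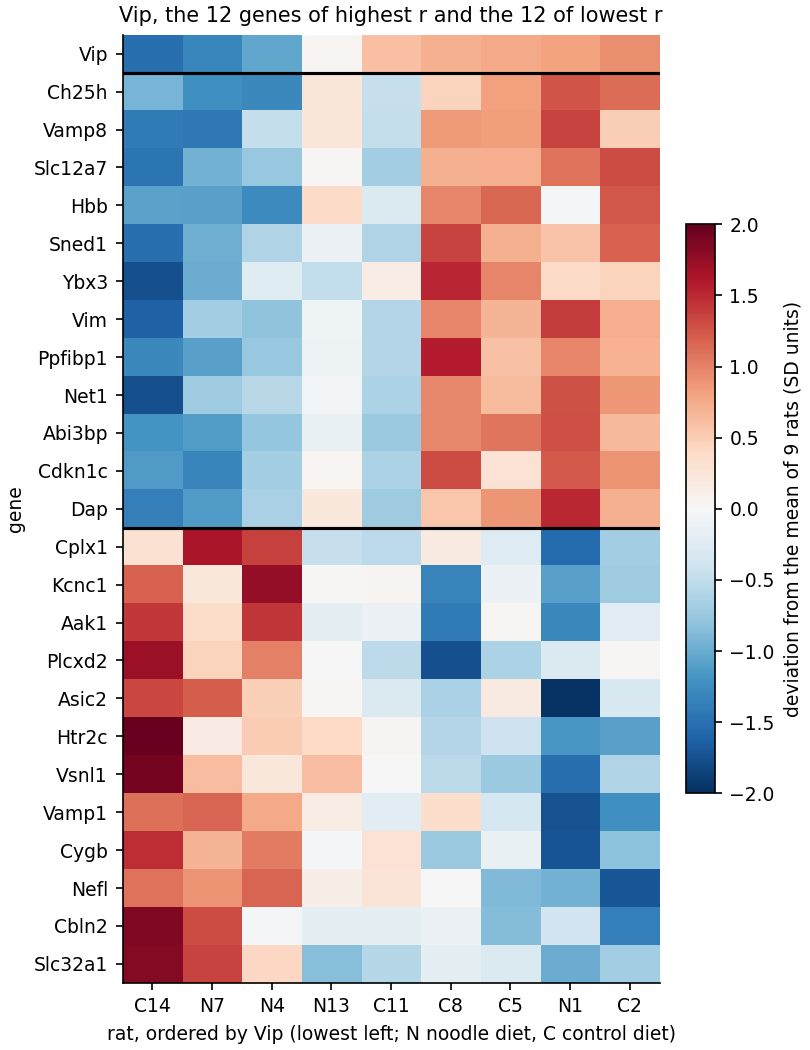
Deviation of each gene from its mean over the 9 rats, in units of its own SD (colour), for Vip, the 12 genes of highest r and the 12 of lowest r (rows), with the rats ordered by Vip from left to right. C14, N7 and N4 are low for Vip and its followers and above the mean for its opposers, except N4 for Cbln2, and C11, high in Vip at 8.01, is below the mean in all followers shown but Ybx3.

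Control rat 11 set Vip apart from the genes that followed it. In that rat Vip was at 8.01, among the 5 high rats, whereas in 36 of the 41 followers it was 1 of the 4 lowest, together with the 3 rats low in Vip. In 24 of the 41 followers those 3 rats were themselves the 3 lowest, and among the 16 opposers they were the 3 highest in 13. Control rat 11 was the next in line in 4 of the 16 opposers. Followers and opposers were chosen by their r with Vip, so the places of the 3 low rats follow in large part from that choice. These counts are descriptions, and the same counts over all variable probe sets were not taken. With this rat left out, 204 of the 1222 other variable probe sets followed Vip and 21 opposed it. All 41 earlier followers and all 16 earlier opposers were among them. Control rat 11 was singled out after its values were seen, as a rat off the pattern of the followers. Leaving it out therefore favours a higher count, and how the counts of other probe sets changed without it was not computed. Without control rat 11 the nearest neighbour of Vip was Ptgds at an r of 0.99, against 0.78 over all 9 rats. Ptgds, prostaglandin D synthase, is made by the leptomeninges and choroid plexus, and was singled out here after its values were seen. It measured 12.66, 10.61, 10.37 and 12.15 in noodle-diet rats 1, 4, 7 and 13 and 12.76, 12.52, 12.67, 10.27 and 10.22 in control rats 2, 5, 8, 11 and 14. Control rat 11 was thus at the low level of Ptgds and at the high level of Vip, and it was the one rat at opposite ends of the 2 genes.

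**Figure D3:**
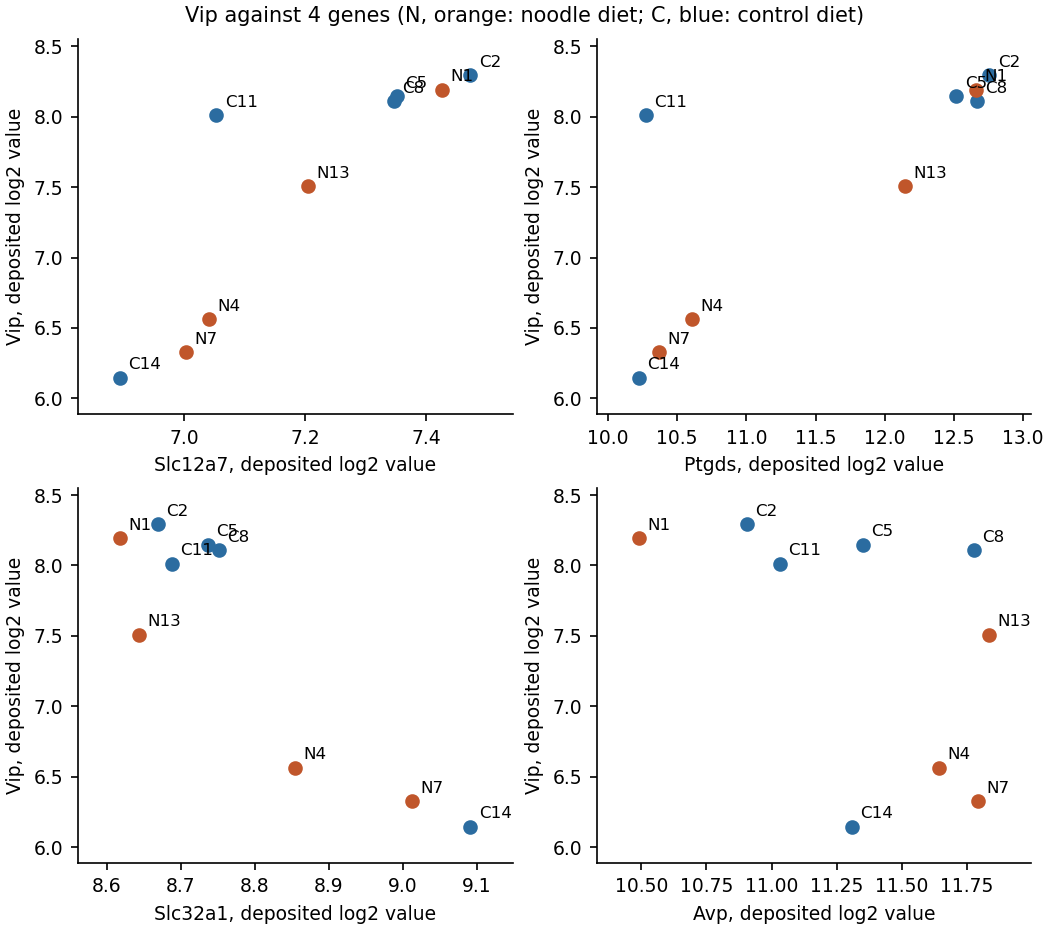
Vip (vertical axes) against Slc12a7, Ptgds, Slc32a1 and Avp (horizontal axes), all in deposited log2 values, 1 point per rat. C11 lies off the line of the other rats for Slc12a7 and Ptgds (r = 0.87 and 0.78 over 9 rats, 0.99 for both without it) and among the other high rats for Slc32a1, and Avp shows a wide scatter (r = -0.48).

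Markers of the meninges ran with Vip, apart from control rat 11. Of 10 meningeal fibroblast genes all 10 were measured and variable and all had a positive r, with a median of 0.74 beside 0.26 over all variable probe sets. Of these 10 genes 1 reached 0.8, the organic anion transporter gene Slc22a6, at 0.84. The mean of the 10 genes, taken per rat, ran from 6.88 to 8.01 on the noodle diet and from 6.80 to 7.88 on the control diet. No detection call comes with the values, so none of these genes can be called absent or present in a rat. Slc22a6 measured 7.44, 5.85, 5.75 and 6.86 in noodle-diet rats 1, 4, 7 and 13 and 7.32, 7.13, 7.41, 6.03 and 5.89 in control rats 2, 5, 8, 11 and 14. The r of Vip with the meningeal mean was 0.76 (rho 0.82) over 9 rats and 0.95 over the 8 rats without control rat 11, where 8 of the 10 genes reached 0.8. A line fitted to those 8 rats passes at 6.34 for the meningeal mean of control rat 11 (6.84). The Vip value of control rat 11 lay 1.68 log2 units above that line, while no other rat lay more than 0.44 from it. The 8 rats shaped the line and control rat 11, singled out after its values were seen, did not. The 2 distances are therefore not alike and are given as a description. The part of meningeal tissue in the Vip values was not tested.

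Glial markers had a lower median r with Vip than the meningeal ones. Of 11 measured myelin genes all 11 were variable with positive r, with a median of 0.41 and none at 0.8. Of the 6 variable astrocyte genes 5 had a positive r, with a median of 0.42, from S100b at -0.17 and Aldh1l1 at 0.22 to Gfap at 0.77. All 6 variable microglia genes had a positive r, with a median of 0.47. Of 6 measured genes of ependymal cells and tanycytes 3 were variable, with Vim at 0.85, Crym at 0.53 and Tmem212 at -0.12 and 0.11 in separate probe sets. All 7 endothelial genes were compressed. Most markers of regions near the hypothalamus were compressed and could not be followed: 1 of 12 measured genes of cortex and hippocampus (Nrgn, r = 0.13), 1 of 8 of striatum (Ppp1r1b, 0.53), 1 of 5 of the mammillary region (Hdc, 0.24) and 2 of 8 of thalamus (Calb2 at -0.58 and Tnnt1 at 0.07) were variable. Of 10 genes of cortical interneurons that make Vip 2 were variable, Calb2 and Tac3 (-0.76), both negative. Ttr of the choroid plexus had an r of 0.46, and the pituitary hormone genes Tshb and Cga had 0.03 and 0.21. Over the 9 rats no value of 0.8 or above occurred in these lists other than that of Vim. Without control rat 11 the astrocyte genes Gjb6 (0.95) and Gfap (0.90) and the microglial Tyrobp (0.83) also reached 0.8, so the likeness without that rat was not limited to meningeal genes.

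**Figure D4:**
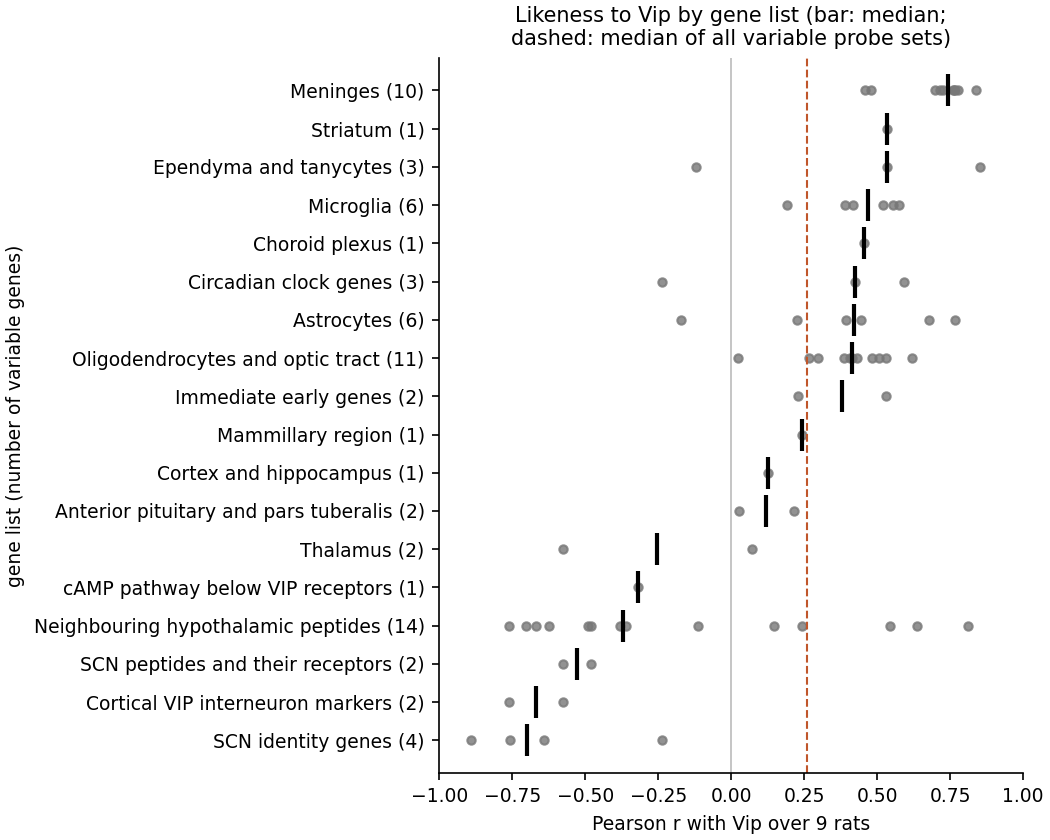
Pearson r with Vip over the 9 rats (horizontal axis) of each variable gene (grey points) in each list (vertical axis, with the number of variable genes), with the list's median as a bar and the median of all variable probe sets (0.26) as a dashed line. The 10 meningeal genes have a median of 0.74, and the 4 variable genes of the suprachiasmatic list are all negative.

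Most followers and opposers of Vip no longer reached 0.8 or -0.8 once the 3 low rats were left out. Because gaps separate the Vip values, r was also taken within the 6 rats of highest Vip, where 14 probe sets followed it and 11 opposed it. Vip ran only from 7.51 to 8.30 in those 6 rats. Fewer rats and a narrower range can lower r by themselves, so these values cannot single out the part of the 3 low rats. Of the 41 followers 1, unnamed here, kept an r of 0.8 there, although all 41 stayed positive. Of the 16 opposers 2 kept -0.8, Vsnl1 (-0.81) and Htr2c (-0.86), and 15 stayed negative. Of the 85 variable probe sets in the gene lists, 16 had the other sign of r among those 6 rats. Beside Slc32a1, Dlx1 and Gad2 these included Dbp (-0.49), Cartpt (-0.39) and Gnrh1 (0.16), and Npy stood at 0.19. Without the 2 rats farthest from the median of Vip, control rat 14 and noodle-diet rat 7, 3 of the 41 followers kept 0.8, which were Ch25h (0.84), Cd63 (0.81) and 1 unnamed here. Of the opposers 3 kept -0.8, which were Kcnc1 (-0.89), Nefl (-0.82) and 1 unnamed here. The r with the meningeal mean was 0.57 over those 7 rats and 0.35 within the 6. Without control rat 14 alone the followers numbered 24, without noodle-diet rat 7 alone 36 and without noodle-diet rat 4 alone 56.

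**Figure D5:**
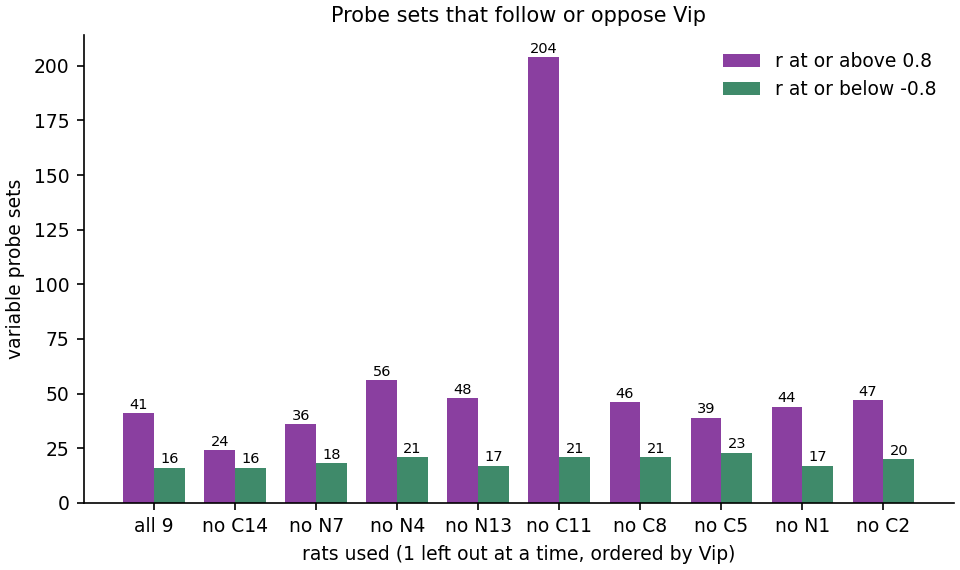
Number of variable probe sets (vertical axis) with an r of at least 0.8 or of -0.8 or below with Vip, over all 9 rats and with each rat left out in turn (horizontal axis, ordered by Vip). Followers number 41 over all rats, 204 without C11 and 24 without C14, and opposers lie between 16 and 23.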

How the data were processed

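The authors deposited 1 table of log2 values for 31099 probe sets of an Affymetrix rat array; the log2 scale was read from the values themselves (5.13 to 13.7), and neither summarization nor normalization is given in the sources used here. The values were used without further scaling, 57 control probe sets were left out, and no columns were identical. The platform's annotation gave 1 symbol to 20826 probe sets, several to 436 and none here to 9780; 0 symbols changed when matched by gene number to RefSeq's GRCr8 table. Diets were compared with limma 3.58.1 in R 4.3.3 (lmFit, eBayes with intensity trend, 2-sided, Benjamini-Hochberg over 31042 probe sets, threshold 0.05), tested on simulated data. Each array is another rat per the labels; the p-values rest on the spread of 9 animals, whose number limits the precision. Likeness to Vip was Pearson's r over variable probe sets. The text names the 12 genes of highest and of lowest r (1 probe set per gene, that of largest absolute r), the variable members of the suprachiasmatic and secretin family lists, and examples from the other lists, some of them picked after their values were seen; a list's median takes the most variable probe set of each gene. The members, the 21 lists and the limit on range were chosen with earlier results of these data known. Alternatives were quantile normalization, a common array median, no trend, a robust prior, array weights, a filter and a floor at the 20th percentile, each rat left out, Spearman's rho, deviations within diet, and other limits on r (0.7, 0.9) and range (0.2). The protein sequence was not used here.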

Additional observations from a re-analysis of the deposited data

Results flagged for a closer look

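Both diets were examined for Vip and for the 24 genes named by r, which makes 50 groups. In 3 of them 1 rat was set apart by a wide gap, and all 3 concern control rat 14. Vip stood at 6.15 there, with the other 4 controls at 8.01 to 8.30. Slc32a1 stood at 9.09, with the others at 8.67 to 8.75. Vsnl1 stood at 11.26, with the others at 11.09 to 11.14. Vip was chosen for its spread and the other genes for sharing or opposing its pattern, so the usual chance rate of 1 group in 20 does not apply here, and the 3 values are descriptions that are not separate from each other.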

How the results depend on the processing

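The diet difference of Vip kept its sign and did not pass in any of the 16 alternatives run, from -0.99 to -0.32 with single rats left out. Its range was 1.97 to 2.15 when each rat in turn was dropped and did not move by more than the SD under rescaling. Followers numbered 24 to 204 and opposers 16 to 23 with single rats left out. Followers numbered 108 by Spearman's rho, 91 by deviations within diet, 18 without the 2 rats farthest from the median of Vip, 14 within the 6 rats of highest Vip (chosen after seeing the data), 162 at an r of 0.7 and 0 at 0.9; opposers numbered 28 by rho, 25 within diet, 39 at -0.7 and 0 at -0.9. Among genes beyond 0.8, the r of Slc32a1 turned from -0.89 to 0.24 within those 6 rats; of the 85 variable probe sets in the lists 16 turned sign there. The cause of these changes was not tested, beyond the fewer rats or the other limit itself. Among the other values of r recomputed for single probe sets, 1689 stayed within their jackknife error and 129 moved beyond it. No paired analysis was possible because the diets share no rat numbers and the labels do not state which rats were fed as pairs. No detection call comes with the values, so a compressed probe set cannot be told from an absent transcript, and 1 probe set measures Vip.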
